A study of Homo sapiens with 6 samples.

Results

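The 48 genes described here encode the kinases, kinetochore proteins, spindle motors and regulators that carry a cell through mitosis. They were chosen by symbol from a list of mitotic genes, with earlier results of the same data known. All 48 were found among the 56794 gene names of the authors' deposited table, as 382 transcripts. Libraries were made from the human line HEK293, embryonic kidney cells often grown to make recombinant protein. In the mutant group (3 libraries) luciferase-expressing HEK293 cells were deleted for CASP8AP2 with CRISPR, and in the parental group (3 libraries) luciferase-expressing HEK293 cells kept the gene. CASP8AP2 encodes FLASH, a protein needed to process histone pre-mRNA, and the title of the series speaks of arrest at G0/G1. The labels do not say whether the mutant cells were 1 clone, where the deletion lies, or whether replicates were separate cultures, so p-values may measure technical spread.

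Mitosis is driven by CDK1 bound to cyclins A and B, and it ends when the anaphase-promoting complex tags those cyclins and securin for destruction. In between, Aurora, Polo-like and checkpoint kinases watch over the attachment of kinetochores to spindle microtubules, and kinesins separate the poles and build the midzone. Most of these genes are transcribed late in the cycle, from promoters held down by the DREAM complex in G0 and G1 and switched on by MYBL2 and FOXM1 in G2. In growing cultures their RNA levels are therefore used as a gauge of how many cells are in G2 and M.

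The deposited table held group means of a length-scaled abundance per transcript, in place of values for single libraries. The authors' added 1 was subtracted, and a gene's level is the sum of its transcripts. Each log2 ratio divides the mutant sum plus 1 by the parental sum plus 1. The means summed to 496162 in each group, which is the scaling as deposited. From the smallest steps between values the mutant libraries were estimated to hold 13300000, 15000000 and 57500000 reads on transcripts, and the parental ones 9190000, 11600000 and 15300000. CASP8AP2 RNA itself had 15.7 in the mutant and 15.9 in the parental group, so the RNA level does not check the labels. Of a pair of genes known from HEK293 cells, the kidney factor gene PAX2 had 3.08 in the mutant and 1.80 in the parental group. The other, the neuronal filament gene INA, was listed at 0 in the mutant group against 6.11 in the parental group.

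As a group the mitotic genes lay close to their parental levels. Summed abundance was 1562 in the mutant group and 1641 in the parental group. The median log2 ratio was -0.08 (quartiles -0.25 and 0.17), with 20 genes higher and 28 lower, beside a median of -0.01 over the 14856 genes that reached an abundance of 1 in one group or more, of which 49.4% were higher. All 48 passed that filter, with mean abundance between 4.94 and 109. After the authors' adjustment no member transcript kept a p under 0.05, while 0.0221% of 140552 transcripts in their deposited table did, and the smallest adjusted p of a member was 0.444. The most abundant transcript of 1 of the 48 genes, SPC25-201, had a p under 0.05, or 2.08%, beside 13.8% of all genes (5.17% higher, 8.63% lower) and 14.1% of the 8978 genes within the members' range of abundance. A log2 ratio of at least 0.5 in size was reached by 8 members (3 higher and 5 lower), or 16.7%, beside 22.8% of all genes, where 11.5% were higher and 11.3% lower. The median p of the most abundant transcripts was 0.572 for the members and 0.363 for all genes. In bulk RNA, a different share of cells in mitosis and a different RNA level per cell cannot be told apart. With the same summed total in each group, only relative levels are compared.

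**Figure D1:**
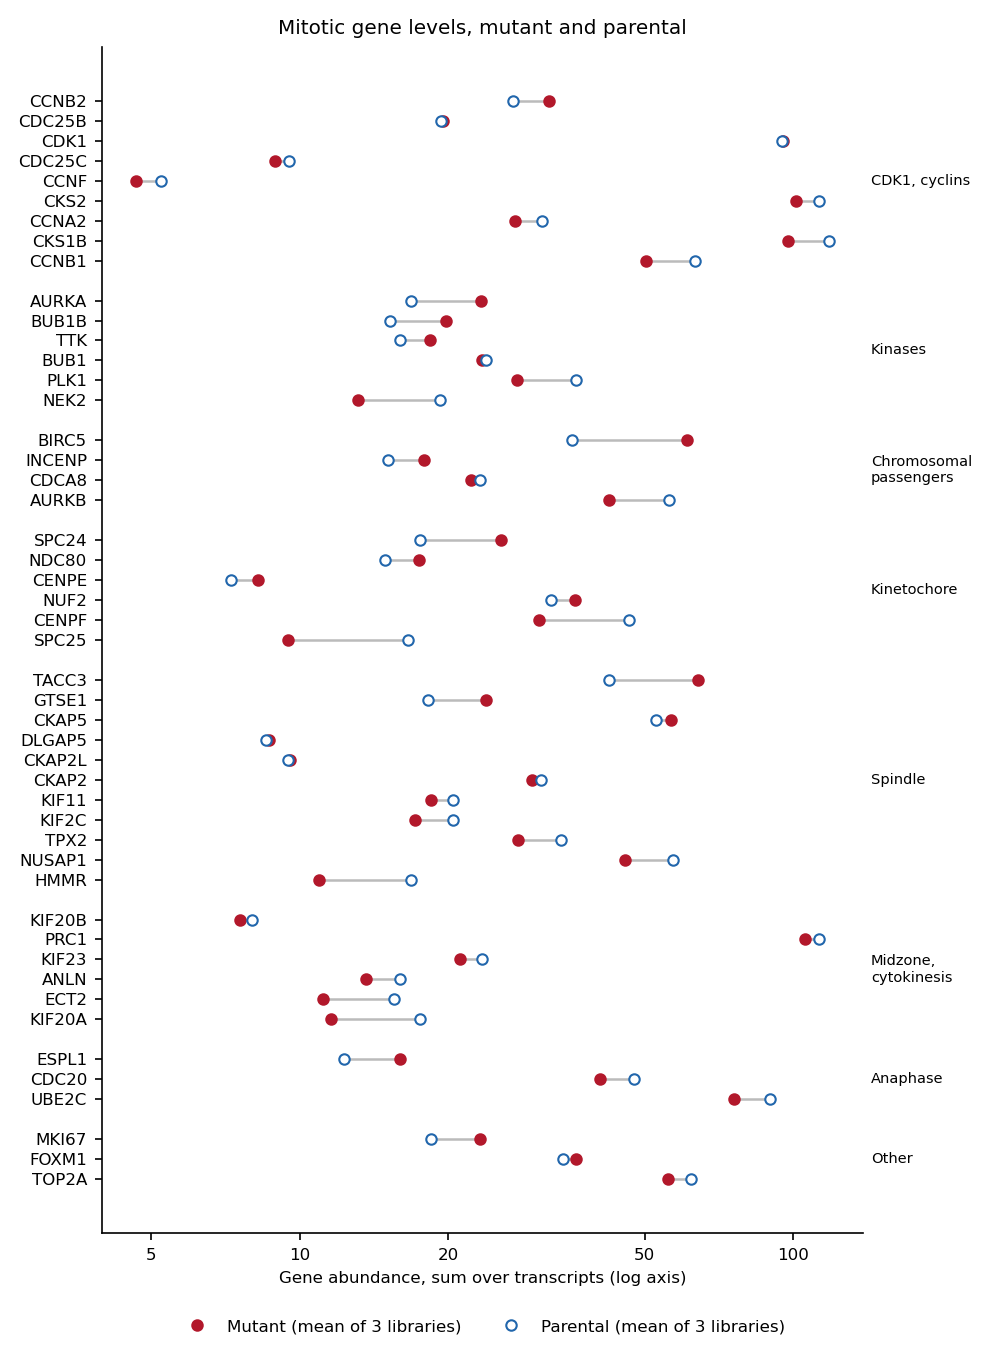
Gene abundance (sum over transcripts, log axis) of the 48 mitotic genes in the mutant group (filled) and the parental group (open), each point the mean of 3 libraries as deposited, with no spread given. Levels ran from CCNF (4.66 in mutant and 5.22 in parental cells) to PRC1, CKS1B and CKS2 near 100.

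Many promoters of these genes carry elements that late cell cycle genes are known for, which the choice of members did not use. The CCAAT box binds the factor NF-Y, and TTTGAA or TTCGAA, the cell cycle genes homology region, binds LIN54 of the DREAM and MYBL2 complexes. RefSeq windows on GRCh38.p14, from 250 bases before to 50 after a gene's start, were found for 42 of the 48 genes (51 windows, since 5 genes had several). Both strands were searched, and matches to different motifs can share at most 1 base. CCAAT stood in 38 of the 51 windows (74.5%), beside 34.6% of all 35116 windows, and TTTGAA in 33 (64.7%), beside 15.2%. TTCGAA was in 4 (7.84%), beside 1.45%. Windows with CCAAT and at least one of the other pair numbered 30 (58.8%), beside 6.38%. The letters TTTCCCGC, an E2F site of many G1/S genes, were in 0 of the 51 windows, in 11 of 56 windows of the G1/S genes described below (19.6%) and in 1.63% of all windows. For those G1/S genes TTTGAA was in 2 of 56 windows (3.57%) and TTCGAA in 1 (1.79%), while CCAAT was in 32 (57.1%), also above the share of all windows. The 32 members with TTTGAA or TTCGAA had a median log2 ratio of -0.08 (13 higher, 19 lower), and the 10 without had -0.21 (3 higher, 7 lower).

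The bases just before the start are printed for the lowest member (SPC25), its partner on the higher side (SPC24), and a kinase and a cyclin gene in the usual arrangement (PLK1 and CCNB2). Capitals mark the CCAAT box and the TTTGAA element on either strand, and each sequence reads 5′ to 3′ on the gene's strand and ends at the base before the start.
SPC25, chr2:168890431-168890550, minus strand: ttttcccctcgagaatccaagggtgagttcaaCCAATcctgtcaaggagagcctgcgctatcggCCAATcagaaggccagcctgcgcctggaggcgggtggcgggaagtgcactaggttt
SPC24, chr19:11155783-11155902, minus strand: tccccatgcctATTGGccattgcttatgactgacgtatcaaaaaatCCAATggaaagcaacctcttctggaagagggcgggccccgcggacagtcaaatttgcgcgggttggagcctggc
PLK1, chr16:23678769-23678888, plus strand: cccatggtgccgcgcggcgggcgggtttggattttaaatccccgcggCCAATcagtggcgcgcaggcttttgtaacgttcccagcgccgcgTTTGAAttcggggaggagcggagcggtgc
CCNB2, chr15:59105026-59105145, plus strand: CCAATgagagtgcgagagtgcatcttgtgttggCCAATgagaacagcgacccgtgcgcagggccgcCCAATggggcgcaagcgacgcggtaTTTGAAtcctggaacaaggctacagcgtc
Within the printed bases, a TTTGAA of PLK1 and of CCNB2 begins 29 bases before the start, downstream of CCAAT at -73 in PLK1 and at -120, -87 and -54 in CCNB2. SPC25 has CCAAT at -88 and -56 and a TTTGAA that begins at -3 and runs past the printed end. SPC24 has CCAAT at -109, on the other strand, and at -74, and no TTTGAA in its window. The log2 ratios of these genes were -0.75 for SPC25, 0.52 for SPC24, -0.38 for PLK1 and 0.24 for CCNB2. In the authors' deposited table the leading transcripts had p 0.0265 for SPC25, 0.312 for SPC24, 0.892 for PLK1 and 0.378 for CCNB2. These promoters were chosen with earlier results known, so their ratios say nothing general about promoters with both elements.

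Kinetochore genes held both the lowest member and one of the highest. The NDC80 complex, which grips the microtubule end, is a rod of NDC80 and NUF2 joined to a foot of SPC24 and SPC25. SPC25 (chromosome 2, 168834132 to 168913371 on hg38) had 9.44 in the mutant and 16.6 in the parental group, a log2 ratio of -0.75. Its main transcript SPC25-201 had 9.28 in the mutant and 15.5 in the parental group, with p 0.0265 and adjusted p 0.703 in the authors' deposited table, a difference that did not pass after adjustment. SPC24 (chromosome 19, 11131520 to 11155808), the other protein of the foot, had 25.5 in the mutant and 17.5 in the parental group, a log2 ratio of 0.52. Its leading transcript SPC24-206 had 17.9 in the mutant and 14.4 in the parental group, a log2 ratio of 0.29 (p 0.312). NDC80 had 17.5 in the mutant and 14.9 in the parental group, and NUF2 had 36.1 in the mutant and 32.3 in the parental group. So 3 of the 4 subunit genes were higher in the mutant means and 1 was lower. CENPE, a kinesin that carries chromosomes to the spindle equator, had 8.22 in the mutant and 7.26 in the parental group. CENPF (chromosome 1, 214603195 to 214664588), a large protein of the outer kinetochore, had 30.6 in the mutant and 46.4 in the parental group, a log2 ratio of -0.59. Its 3 most abundant transcripts were all lower in the mutant means, and differences between them were not tested. The long coding CENPF-201 had 14.2 in the mutant and 18.5 in the parental group (log2 ratio -0.35, p 0.821), and the short non-coding CENPF-204 had 13.5 in the mutant and 21.2 in the parental group (log2 ratio -0.61, p 0.160). The short coding CENPF-206 had 2.36 in the mutant and 6.42 in the parental group (log2 ratio -1.14), with the smallest p of the gene, 0.0651.

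Genes of the chromosomal passenger complex, which corrects faulty attachments, lay on both sides of 0. BIRC5 (chromosome 17, 78214186 to 78225636), which encodes survivin, had the highest ratio of the 48, with 60.8 in the mutant and 35.6 in the parental group (log2 ratio 0.76). Its main transcript BIRC5-202 had 50.8 in the mutant and 28.8 in the parental group, with p 0.146 and adjusted p 0.703 in the authors' deposited table. AURKB, the kinase of the same complex, had 42.3 in the mutant and 55.9 in the parental group. INCENP, its scaffold, had 17.9 in the mutant and 15.1 in the parental group, and CDCA8, which encodes borealin, had 22.2 in the mutant and 23.2 in the parental group. The summed abundance of the 4 genes was 143 in the mutant and 130 in the parental group. That order rests on BIRC5, since without it the sum is lower in the mutant group.

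CDK1 and its partners were near parental levels. CDK1, the kinase that starts mitosis, had 95.4 in the mutant group, and its log2 ratio to the parental group was 0.01. Its main transcript CDK1-204 had 47.2 in the mutant and 51.8 in the parental group (p 0.296). Among its cyclins, CCNB1 had 50.3 in the mutant and 63.1 in the parental group, CCNB2 had 31.9 in the mutant and 27.0 in the parental group, and CCNA2 had 27.3 in the mutant and 31.0 in the parental group. CCNF, which encodes a cyclin that works as a ubiquitin ligase adaptor, was the least abundant member, with 4.66 in the mutant and 5.22 in the parental group. The phosphatases that activate CDK1 lay near parental levels too: CDC25B had 19.5 in the mutant and 19.4 in the parental group, and CDC25C had 8.90 in the mutant and 9.51 in the parental group. CKS1B, a small protein that docks on CDK1, had 97.4 in the mutant and 118 in the parental group, and its relative CKS2 had 101 in the mutant and 113 in the parental group. Their median log2 ratio was -0.14, within -0.32 to 0.24, with 3 of the 9 higher and 6 lower, and no leading transcript had a p under 0.05.

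The other mitotic kinases split evenly. AURKA, which matures the spindle poles, had 23.2 in the mutant and 16.8 in the parental group (log2 ratio 0.45). Of the spindle checkpoint, BUB1B had 19.7 in the mutant and 15.3 in the parental group, and TTK had 18.3 in the mutant and 16.0 in the parental group. The protein-coding forms of BUB1B alone had 13.3 in the mutant and 12.2 in the parental group, a log2 ratio of 0.11. BUB1, a further checkpoint kinase, had 23.4 in the mutant and 23.9 in the parental group. On the lower side PLK1, which acts from mitotic entry to cytokinesis, had 27.6 in the mutant and 36.3 in the parental group, and NEK2, which splits the centrosomes, had 13.1 in the mutant and 19.2 in the parental group. The leading transcripts of the 6 had p-values from 0.154 for NEK2-202 to 0.994 for BUB1-201. PLK1-201 had 23.9 in the mutant and 31.1 in the parental group, and its deposited p of 0.892 is above 0.863, the largest p that an equal-variance comparison of unlogged values can give with those means in 3 against 3 libraries. BUB1-201 was the other such case among the 48 (0.994 against 0.934), beside 2.07% of all genes. For these transcripts the deposited p therefore did not compare the printed arithmetic means on an unlogged scale, and for no gene was a standard error worked out from it.

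Spindle genes covered the range from TACC3 to HMMR. TACC3 (chromosome 4, 1721490 to 1745176), which holds clathrin and CKAP5 on spindle fibres, had 64.0 in the mutant and 42.3 in the parental group, a log2 ratio of 0.59. Its main transcript TACC3-201 had 38.2 in the mutant and 27.1 in the parental group, with p 0.268 and adjusted p 0.703 in the authors' deposited table. CKAP5, a microtubule polymerase, had 56.6 in the mutant and 52.7 in the parental group, and GTSE1, a microtubule-tip protein, had 23.8 in the mutant and 18.2 in the parental group. The protein-coding part of GTSE1 had 15.0 in the mutant and 12.9 in the parental group, a log2 ratio of 0.20. HMMR (chromosome 5, 163460203 to 163491945), which places the spindle, had 10.9 in the mutant and 16.8 in the parental group, a log2 ratio of -0.58, and HMMR-202 had 6.48 in the mutant and 10.3 in the parental group (p 0.142). NUSAP1, which bundles microtubules, had 45.6 in the mutant and 57.1 in the parental group, and the p of NUSAP1-202 was 0.0562. TPX2, the activator of AURKA, had 27.7 in the mutant and 33.8 in the parental group. The pole-separating motor KIF11 had 18.4 in the mutant and 20.4 in the parental group, and the depolymerising kinesin KIF2C had 17.1 in the mutant and 20.4 in the parental group. The microtubule-binding proteins DLGAP5, CKAP2L and CKAP2 were closer. DLGAP5 had 8.66 in the mutant and 8.52 in the parental group, CKAP2L had 9.56 in the mutant and 9.48 in the parental group, and CKAP2 had 29.5 in the mutant and 30.8 in the parental group.

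In the midzone and cytokinesis set the gene sums of 6 of 6 genes were lower in the mutant means, with a median log2 ratio of -0.18 and no leading transcript with a p under 0.05. Of all measured genes 49.4% were higher, and of those below the all-gene median GC content 38.5% were higher, with a median of -0.11. The count of lower genes in the set was 5 of 6 under each of 3 alternatives. KIF20B had a log2 ratio of 0.01 with the GC and length trends removed and 0.06 with protein-coding transcripts only, and KIF23 had 0.06 with its leading transcript only. KIF20A, which relocates the passenger complex to the midzone, had 11.6 in the mutant and 17.5 in the parental group (log2 ratio -0.56), and KIF20A-205 had a p of 0.0608. ECT2, which activates RhoA for the contractile ring, had 11.1 in the mutant and 15.5 in the parental group, and ANLN, a scaffold of that ring, had 13.6 in the mutant and 15.9 in the parental group. PRC1, which cross-links midzone microtubules, had 105 in the mutant and 113 in the parental group. KIF23, a motor of the centralspindlin complex, had 21.1 in the mutant and 23.4 in the parental group, and KIF20B had 7.56 in the mutant and 7.98 in the parental group. The median GC content of the 6 was 40.6%, and removing the trends of GC content and length moved their median log2 ratio to -0.07.

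Genes of anaphase onset and the remaining members were split as well. CDC20, which activates the anaphase-promoting complex, had 40.5 in the mutant and 47.5 in the parental group, and UBE2C, its ubiquitin-conjugating enzyme, had 75.9 in the mutant and 89.8 in the parental group. ESPL1, which encodes separase, the protease that cuts cohesin, had 15.9 in the mutant and 12.3 in the parental group. FOXM1, the transcription factor of late cell cycle genes, had 36.2 in the mutant and 34.1 in the parental group. TOP2A, which untangles sister chromatids, had 55.6 in the mutant and 61.9 in the parental group. MKI67, the proliferation marker Ki-67 that coats mitotic chromosomes, had 23.2 in the mutant and 18.4 in the parental group.

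**Figure D2:**
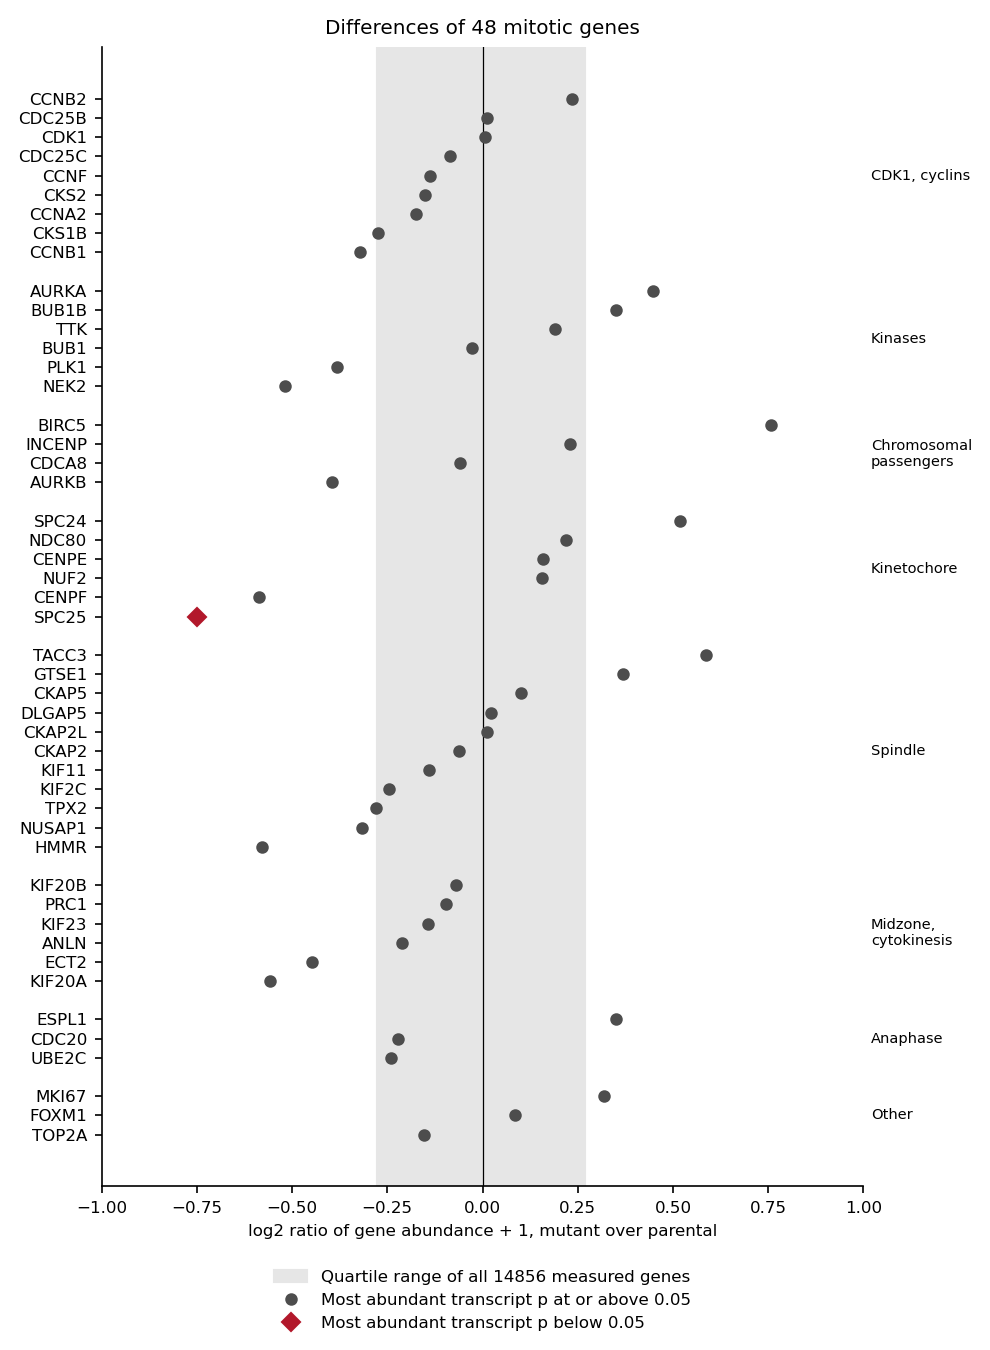
Log2 ratio of gene abundance plus 1, mutant over parental, for the 48 genes by role, with the quartile range of 14856 measured genes shaded (-0.28 to 0.27). SPC25, at -0.75, is the single diamond, the gene whose most abundant transcript had a p under 0.05, and BIRC5 is highest at 0.76.

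Few single transcripts had a small p. Of the 338 member transcripts with a p-value, 12 had a p under 0.05 (3.55%), beside 5.79% of all transcripts. Of these, 8 were higher in the mutant group, where the share over all transcripts was 3.30%, and 4 were lower, where it was 2.48%. They came from 10 genes, 6 of the 12 were not protein-coding forms, and 5 had an abundance under 1 in both groups. CKAP2 held a pair in opposite directions. CKAP2-203 had 10.1 in the mutant and 6.37 in the parental group (p 0.0213), and CKAP2-207 had 0.991 in the mutant and 2.04 in the parental group (p 0.00325), while the gene sum had a log2 ratio of -0.06. SPC24-207, a coding form shorter than SPC24-206, had 4.50 in the mutant and 1.39 in the parental group (p 0.00846). Besides CKAP2-207 and SPC25-201, the lower ones were CKS1B-203, with 7.16 in the mutant and 13.0 in the parental group (p 0.0380), and AURKB-207, with 0.0131 in the mutant and 0.687 in the parental group (p 0.0296). Retained-intron forms of BUB1B were higher in the mutant group, BUB1B-208 with 1.96 in the mutant and 0.373 in the parental group (p 0.0371) and BUB1B-203 with 0.736 in the mutant and 0.210 in the parental group (p 0.0294). The other 4 were higher: TACC3-210, NUF2-209, CDC25B-209 and BIRC5-208, with p-values from 0.0118 to 0.0468. None passed adjustment over all transcripts, and each of these p-values is from the authors' deposited table.

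**Figure D3:**
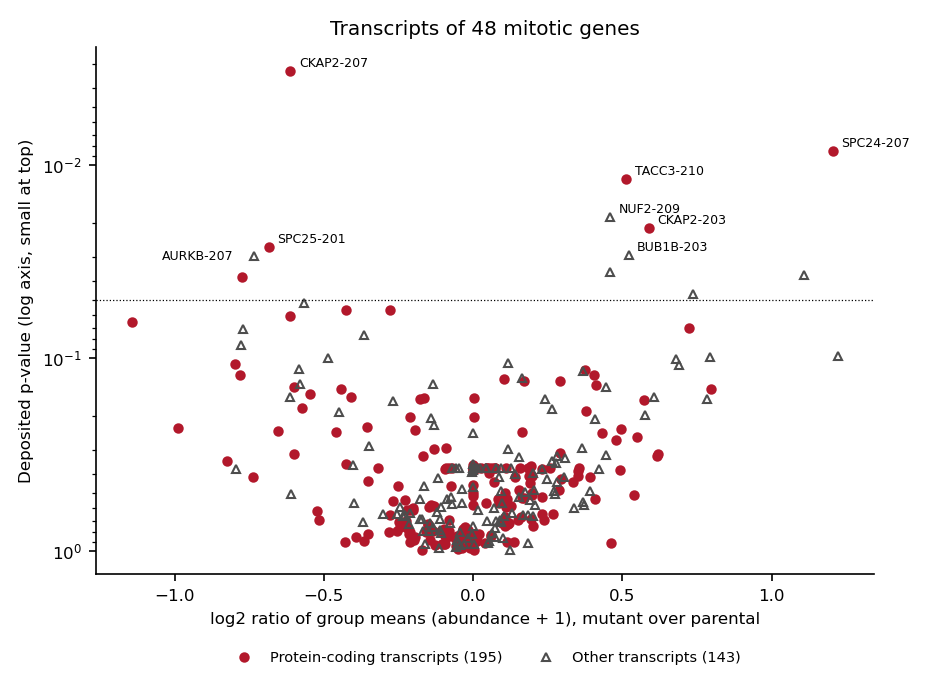
Deposited p-value (log axis, small values at the top) against the log2 ratio of group means, mutant over parental, for 338 transcripts of the 48 genes, with protein-coding forms filled and other forms open. The 12 points above the dotted line have a p under 0.05, and CKAP2-207 is the highest of them at 0.00325.

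The leading transcript was the same in both groups for 46 of the 48 genes. The exceptions were AURKB, led by AURKB-214 in the mutant group and AURKB-202 in the parental group, and CENPF, led by CENPF-201 in the mutant group and CENPF-204 in the parental group. The leading form held a median of 61.2% of a gene's abundance in the mutant group and 64.6% in the parental group, and for 33 genes these shares differed by less than 5 percentage points. The largest gap was in ANLN, where ANLN-201 held 42.2% in the mutant and 60.4% in the parental group. Protein-coding forms together held 86.0% of the members' abundance in the mutant group and 87.2% in the parental group. By the mean of both groups the leading form was protein-coding for 44 of the 48 genes, and not for INCENP, CENPF, KIF20B and CKAP5. In the mutant group protein-coding forms held 40.2% of ESPL1 and 46.1% of CKAP5. Retained-intron forms (82 transcripts) summed to 164 in the mutant group and 146 in the parental group. The sources used here do not say how reads shared by overlapping forms were divided, so levels of single forms are less certain than gene sums.

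GC content moved with the ratios of all genes. Spearman's rho between GC content and log2 ratio was 0.31 across 14737 genes and 0.19 across the 48 members, as a description, since genes share their libraries. Members are poorer in G and C than most genes, with a median of 44.2% beside 48.7%. The 33 members below the all-gene median had a median log2 ratio of -0.10 (12 higher, 21 lower), beside -0.11 for all genes on that side. The 15 members at or above it had 0.01 (8 higher, 7 lower), beside 0.11. The lower extremes were poor in G and C (SPC25 39.8%, CENPF 39.8% and HMMR 36.9%) and the higher ones rich (BIRC5 51.8%, SPC24 54.7% and TACC3 58.5%). With the GC and length trends removed the log2 ratio was -0.54 for SPC25, -0.47 for CENPF and -0.44 for HMMR, and 0.75 for BIRC5, 0.49 for SPC24 and 0.44 for TACC3. The 3 lowest were then SPC25, KIF20A (-0.54) and PLK1 (57.4% GC, -0.48). The 3 highest were then BIRC5, AURKA (45.3% GC, 0.52) and SPC24. The median of the 48 was then -0.02.

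**Figure D4:**
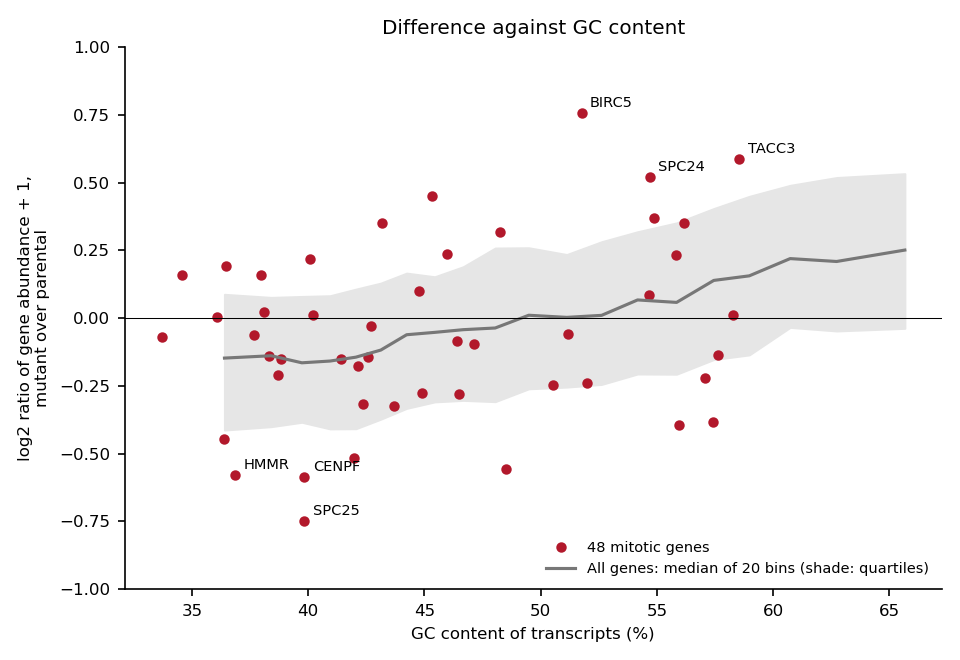
Log2 ratio of gene abundance plus 1, mutant over parental, against the GC content of a gene's transcripts for the 48 members (points), with the median and quartiles of all measured genes in 20 GC bins (line and shade). SPC25, CENPF and HMMR sit at the lower left, where the line is below 0, and SPC24 and TACC3 at the upper right, where it is above 0. BIRC5, the highest point, has a GC content of 51.8%, where the line is near 0 (0.01 in the bin at 52.6%).

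Further mitotic genes, listed for the same pathway, are given next. The 125 genes of 6 lists had a median log2 ratio of -0.08, with 53 higher and 72 lower, and 14 leading transcripts had a p under 0.05 (3 higher, 11 lower), or 11.2% beside 13.8% of all genes. None had an adjusted p under 0.05. Inner and outer kinetochore genes (29) had a median of -0.11. NSL1, of the MIS12 complex, held the smallest p of that list (15.1 in the mutant and 20.1 in the parental group, p 0.0207). CENPQ was lowest, with 12.8 in the mutant and 22.0 in the parental group, and CENPC highest, with 5.75 in the mutant and 3.75 in the parental group. Checkpoint and cohesion genes (15) had a median of -0.12, and MAD1L1 held the smallest p (7.58 in the mutant and 10.9 in the parental group, p 0.0161). SPDL1 was lowest, with 16.4 in the mutant and 26.3 in the parental group, and KNTC1 highest, with 51.9 in the mutant and 41.0 in the parental group.

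The median of 17 anaphase-promoting complex genes was 0.00, with 9 on the higher and 8 on the lower side, and the smallest p was 0.0589, for CDC23 (26.7 in the mutant and 37.8 in the parental group). ANAPC13 was lowest, with 27.7 in the mutant and 39.2 in the parental group, and ANAPC11 highest, with 95.1 in the mutant and 68.8 in the parental group. Further spindle genes (28) had a median of 0.09. Among them TUBG1, the gamma-tubulin of microtubule nucleation, had 71.5 in the mutant and 51.7 in the parental group (p 0.00183). HAUS4, of the augmin complex, was highest, with 30.7 in the mutant and 16.8 in the parental group (log2 ratio 0.84), and RACGAP1, the partner of KIF23, lowest, with 17.7 in the mutant and 25.3 in the parental group. Genes of mitotic entry and exit (21) had a median of -0.05, and the kinase gene PBK held the smallest p (26.6 in the mutant and 36.6 in the parental group, p 0.0447). PPP2R2A was lowest, with 37.0 in the mutant and 53.1 in the parental group, and CDKN3 highest, with 19.6 in the mutant and 14.1 in the parental group. Transcriptional regulators of G2/M genes (15) had a median of -0.25, with 10 of 15 on the lower side. MYBL2, given because it is named above with FOXM1, had 149 in the mutant and 212 in the parental group (log2 ratio -0.50, p 0.362). RBL1, a pocket protein gene of the retinoblastoma family, was lowest, with 4.72 in the mutant and 8.74 in the parental group (p 0.000280), and its relative RBL2 highest, with 16.7 in the mutant and 14.0 in the parental group.

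Genes of the phase before, G1/S and DNA replication, are set beside the members from the same libraries. The 50 listed genes had a median of -0.48 on the log2 scale, with 13 above 0 and 37 below, while the 48 mitotic genes had -0.08, with 20 above and 28 below. Leading transcripts with a p under 0.05 numbered 20 of 50 (1 higher, 19 lower), beside 1 of 48 for the mitotic genes and 13.8% of all genes. Summed abundance of the G1/S genes was 2018 in the mutant and 2852 in the parental group. PCNA, the sliding clamp gene, was lowest, with 139 in the mutant and 352 in the parental group (p 0.0191). CCNE2, a cyclin gene of S phase entry, held the smallest p (4.08 in the mutant and 6.79 in the parental group, p 0.000588). CDT1, of origin licensing, was highest, with 74.1 in the mutant and 44.0 in the parental group (p 0.0215). After adjustment over all transcripts, none of the 50 leading transcripts stayed below 0.05. The adjusted values were 0.264 for CCNE2, 0.673 for PCNA and 0.698 for CDT1. No test of the difference between these sets was made. The G1/S set was known from earlier results of these data to lie lower, so its position is no independent evidence. Its median GC content of 48.1% was above the 44.2% of the mitotic genes. With the GC and length trends removed the median log2 ratio was -0.40 for the G1/S genes and -0.02 for the mitotic genes.

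**Figure D5:**
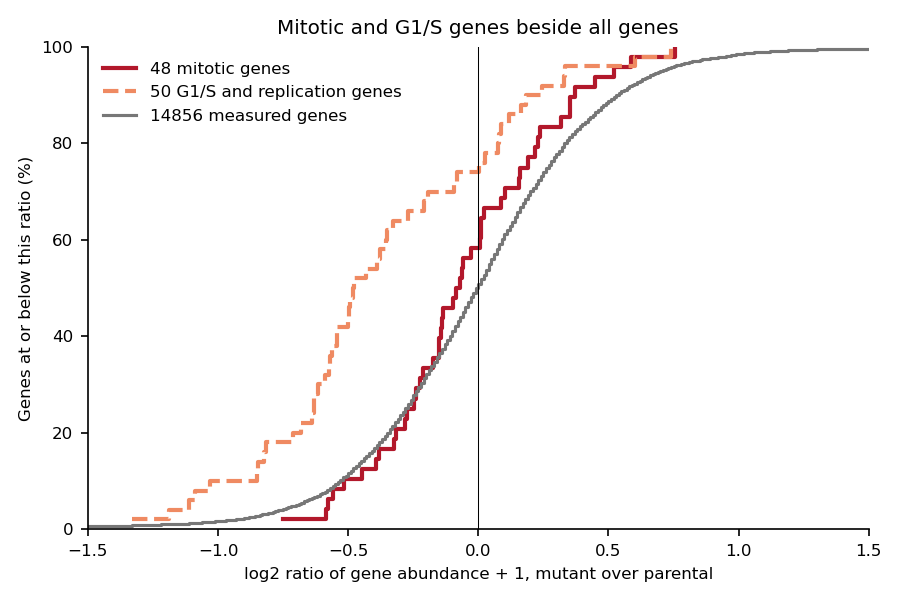
Cumulative share of genes (percent) by log2 ratio of gene abundance plus 1, mutant over parental, for the 48 mitotic genes (solid), 50 G1/S and replication genes (dashed) and 14856 measured genes (thin). The mitotic curve lies near that of all genes on the lower side (lower quartiles -0.25 and -0.28, medians -0.08 and -0.01). It lies to the left on the upper side (upper quartiles 0.17 and 0.27). The G1/S curve lies further left, with a median of -0.48.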

How the data were processed

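Per the labels' protocols, total RNA was isolated with RNeasy kits from frozen pellets of trypsinised cells, then NEBNext Ultra libraries were built with random primers. Per the submitters' processing notes, bcl2fastq, STAR and Partek were used with build hg38; the sources used here give no versions, annotation, filters or statistical test. The file headers name what the authors deposited. Per the file headers, they deposited for each transcript a score called LSMean for each group, a ratio and signed fold, and a p-value with its adjusted form, all held as scores. The deposited signal called total counts was 3 times the summed group means. Values for single libraries are not analysed here.

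Group means less 1 were summed per gene, and log2 ratios used an added 1. The design named fits of single libraries or, where only the authors' comparison was given, a description with their p-values, and the second case held. Benjamini-Hochberg adjustment over 140552 transcripts gave the deposited adjusted p again. A gene's p is that of its most abundant transcript by the mean of both groups. Names matched GENCODE 29 for 99.1% of transcripts, which gave positions, biotypes, length and GC content (abundance-weighted over transcripts, known for 99.2% of measured genes). GC and length trends were running medians over 40 bins, averaged over 5. Depth came from transcripts with p 0.374, the value that reads in 1 library of 6 give, where abundance times length takes repeated steps. An error implied by the p-values was planned and left out for the reason given beside PLK1. Ratio, adjustment and trend steps were tested on simulated data.

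Full statistics were planned for members with a leading-transcript p under 0.05, for the 3 highest and the 3 lowest log2 ratios, and for each further list's smallest p and extremes; other values are given for every member. The members, lists, motifs, tests and printed sequences were chosen with earlier results of these data known. Alternatives were an added 0.1, an abundance of at least 5 or no filter, the leading transcript only, protein-coding transcripts only, the all-gene median or GC and length trends removed, an adjusted p under 0.01, 1 transcript per gene and the p of the factor Type. Chosen after the data were seen were the removal of retained-intron forms, a minimum transcript abundance for the counts of p-values, and the background within the members' abundance range. Python 3.11.15, pandas 2.3.3 and scipy 1.17.1 were used.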

Additional observations from a re-analysis of the deposited data

How the results depend on the processing

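The median log2 ratio of the 48 genes ran from -0.14 to -0.02 over 8 alternatives, with 16 to 23 genes higher and 25 to 32 lower, and every median was below 0. The count of member transcripts past an adjusted p of 0.05 was 0 in the main setting and under 3 alternatives. Of the 12 member transcripts with a p under 0.05, 7 reached an abundance of 1 in one group or more and 3 reached 5. Over all transcripts the 31 calls became 18 with the adjusted p of the factor Type, 1 at an adjusted p under 0.01 and 13 with 1 transcript per gene, which tests fewer features. Of the genes given in full, SPC24 moved from 0.52 to 0.29 on the log2 scale when its leading transcript alone was used. TACC3 moved from 0.59 to 0.48 with its leading transcript only. It had 0.43 with protein-coding transcripts only and 0.43 without retained-intron forms. Removing the GC and length trends moved TACC3, SPC25, CENPF and HMMR by more than 0.1, to the values given with GC content. No gene given in full changed direction. Other tools and normalizations and leaving out single libraries could not be run on group means. No paired analysis was possible because the table gives group means, not values of numbered libraries. Depth is an estimate, and its error is not known.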
